A study of Mus musculus with 4 samples.

Results

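Hyaluronan genes were examined in 4 ATAC-seq libraries of mouse fibroblasts on the way to induced cardiomyocytes. The 8 genes were the synthases Has1, Has2 and Has3, the receptors Cd44 and Hmmr, the hyaluronidases Hyal1 and Hyal2, and Tnfaip6. At each gene, accessible regions were taken that overlapped the gene body or its flanks of 50 kb in mm10, after peaks sharing at least 1 bp across libraries had been merged. This gave 82 regions of 90239 in the whole series, 19 of which lay at both Hyal1 and Hyal2 because these genes are neighbours on chromosome 9. ATAC-seq measures open chromatin through the places where the Tn5 transposase can cut and tag DNA. Libraries came from the iMGT-Myh6-eGFP-MEF line, mouse embryonic fibroblasts in which doxycycline (1 μg/mL) induces MGT, the trio of cardiac transcription factors Mef2c, Gata4 and Tbx5. By its name the line also has eGFP under Myh6, which encodes a cardiac myosin. Before induction, cells were transfected with an siRNA against Chst7 (siChst7, 2 libraries) or a control siRNA (siControl, 2 libraries), and all were harvested and frozen at day 1 of MGT expression, so doxycycline and MGT are common to both groups. The labels call the replicates biological without saying whether they were separate cultures, so any spread is that between these samples. Chst7 encodes a sulfotransferase of chondroitin sulfate synthesis.

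Hyaluronan is a long, unsulfated glycosaminoglycan of the extracellular matrix. Unlike chondroitin sulfate it is not built on a core protein: the synthases make it at the plasma membrane and push it out of the cell. CD44 is its main cell-surface receptor, HMMR (also called RHAMM) binds it and also works at the mitotic spindle, hyaluronidases cut it, and TNFAIP6 (TSG-6) is a secreted protein that transfers protein heavy chains onto it during inflammation. In the developing mouse heart, Has2 is needed for the hyaluronan-rich cushions from which valves form.

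The libraries held 74402 and 66165 peaks with siChst7, against 73902 and 75696 peaks with siControl. In all the regions called in all 4 libraries, the median −log10 q was 37.2 and 28.6 with siChst7, against 37.7 and 37.02 with siControl, so the list of siChst7 replicate 2 was both the shortest and the least significant. The region over the Chst7 start (X, 20059156 to 20060692) was called in every library, with a fold enrichment of 11.97 and 12.0 in siChst7 and 15.04 and 13.1 in siControl. An siRNA acts on the transcript, so this does not check the knockdown. Of fibroblast markers, 8 of 10 had a region within 1 kb of their start in all 4 libraries, among them Col1a1, Pdgfra and Thy1. Cardiomyocyte markers had one at 2 of 6 (Myh6 and Tnnt2), endothelial markers at 0 of 3, and immune and epithelial markers at 1 of 3 each (Spi1 and Krt8).

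Promoters of the 6 members with a RefSeq entry (GRCm38.p6, the assembly of mm10) are given as the 250 bases before the gene start, because the regions over gene starts are the part of these loci that was called most uniformly. The first 4 lay within or partly within a region called in all 4 libraries, and the last 2 lay outside every called region. Capitals mark letters of motifs searched for on both strands.
Tnfaip6, chr2:52037863-52038112, strand +: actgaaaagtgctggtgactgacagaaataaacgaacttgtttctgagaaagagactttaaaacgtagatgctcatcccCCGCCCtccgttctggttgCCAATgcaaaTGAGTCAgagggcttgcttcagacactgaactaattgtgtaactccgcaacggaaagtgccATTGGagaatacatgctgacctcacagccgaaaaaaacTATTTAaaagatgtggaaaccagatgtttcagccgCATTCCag
Hmmr, chr11:40733438-40733687, strand -: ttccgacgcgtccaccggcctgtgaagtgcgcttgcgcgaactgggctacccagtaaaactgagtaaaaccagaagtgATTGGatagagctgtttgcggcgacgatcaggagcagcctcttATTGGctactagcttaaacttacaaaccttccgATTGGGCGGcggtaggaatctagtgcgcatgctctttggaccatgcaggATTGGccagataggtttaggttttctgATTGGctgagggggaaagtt
Hyal2, chr9:107568913-107569162, strand +: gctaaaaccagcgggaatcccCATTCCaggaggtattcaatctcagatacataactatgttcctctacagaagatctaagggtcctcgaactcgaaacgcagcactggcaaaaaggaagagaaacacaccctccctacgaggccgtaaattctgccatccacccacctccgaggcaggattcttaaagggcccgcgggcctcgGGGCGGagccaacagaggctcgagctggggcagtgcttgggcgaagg
Cd44, chr2:102901666-102901915, strand -: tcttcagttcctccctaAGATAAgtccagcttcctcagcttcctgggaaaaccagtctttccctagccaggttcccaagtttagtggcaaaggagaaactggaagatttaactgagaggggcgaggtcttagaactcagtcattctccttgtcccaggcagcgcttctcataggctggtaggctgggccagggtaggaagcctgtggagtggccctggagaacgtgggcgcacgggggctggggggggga
Hyal1, chr9:107576700-107576949, strand +: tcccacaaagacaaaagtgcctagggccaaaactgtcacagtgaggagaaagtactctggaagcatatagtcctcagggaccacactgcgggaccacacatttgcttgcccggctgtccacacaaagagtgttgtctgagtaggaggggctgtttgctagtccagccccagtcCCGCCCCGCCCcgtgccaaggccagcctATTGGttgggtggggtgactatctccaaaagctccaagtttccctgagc
Has1, chr17:17855189-17855438, strand -: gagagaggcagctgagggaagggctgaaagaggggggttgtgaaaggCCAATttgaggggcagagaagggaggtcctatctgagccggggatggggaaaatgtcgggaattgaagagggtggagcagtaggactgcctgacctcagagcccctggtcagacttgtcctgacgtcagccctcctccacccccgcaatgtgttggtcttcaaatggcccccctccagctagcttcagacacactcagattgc

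Factors of the MGT trio were represented by the letters AGATAA for GATA factors, by AGGTGT for T-box factors and by TATTTA for the core of the MEF2 motif. TGACTCA stood for AP-1 and GGAATG was searched as the TEAD motif. Of general promoter elements, GGGCGG was the GC box and TATAAA the TATA box, with CCAAT searched under its own letters. CCGGAA was taken for ETS factors, and CACGTG as the E-box. Tnfaip6 held an AP-1 match 142 bases before its start, a motif present in 4.06% of 21262 promoter windows of the same length. It also held a MEF2 core 43 bases before the start (11.2% of windows) and a TEAD match 8 bases before it (11.7%). Hmmr held 5 CCAAT matches, 1 of which overlapped its GC box, a number reached by 0.259% of windows and singled out after it was seen. Cd44 held only a GATA match (8.81%), 233 bases before its start and outside the region called over that start. Has1 held only a CCAAT match (35.4%). Hyal2 held a TEAD match and a GC box (42.6%), and Hyal1 a pair of overlapping GC boxes and a CCAAT. Among these promoters Hmmr and Hyal2 had the most CpG dinucleotides, 14 and 13, against 8 in Tnfaip6, 5 in Cd44 and Hyal1, 4 in Has1 and a median of 10 over all windows. A match describes letters only and says nothing of whether a factor was bound.

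Across the loci, accessibility was largely common to both siRNAs. Of the 82 regions, 51 (62.2%) were called in all 4 libraries, against 62% of all regions in the series. One siRNA alone accounted for few: 1 region (1.22%) was found with siChst7 in both replicates and with siControl in none, against 1.24% of all regions. The reverse held for 3 (3.66%), against 2.84% of all regions. These shares were close to the background of the series. The remaining 27 regions had other combinations, and 16 of them were called in a single library. Single-library regions numbered 2 and 3 with siChst7, against 7 and 4 with siControl. The share of such regions over the whole series was not computed, so these counts have no background and are not read as a difference. The peaks at the 8 loci made up 0.0888% and 0.0968% of the siChst7 lists, against 0.0935% and 0.0873% of the siControl lists, so the groups overlapped. The difference of means was 0.00244 percentage points (0.0928% ± 0.00568 in siChst7 and 0.0904% ± 0.00437 in siControl, SD, n = 2 each; exact permutation test, two-sided p = 0.667, where 2 against 2 cannot give less than 0.333). The median locus of the 8 genes held 10 regions, against 9 over all 21883 protein-coding genes.

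**Figure D1:**
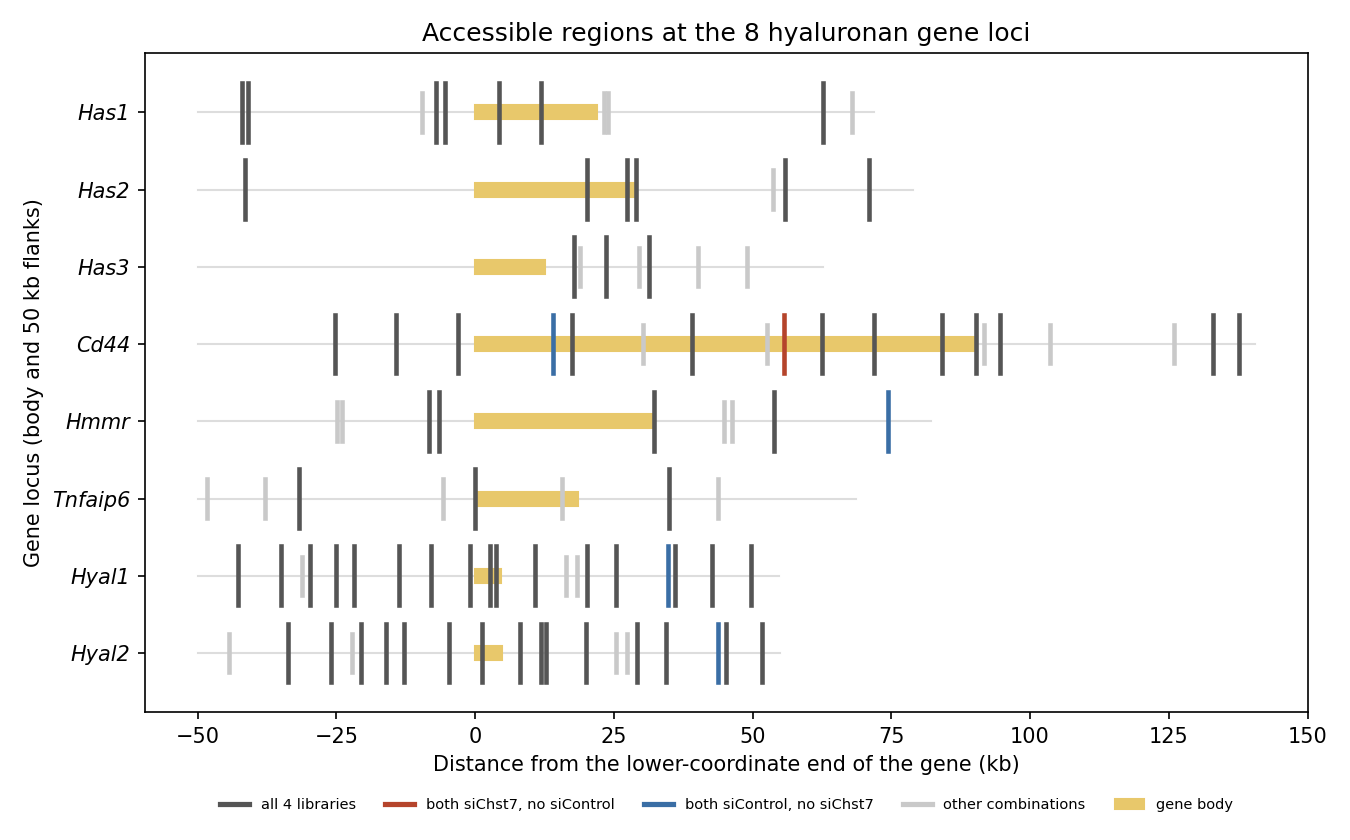
Accessible regions at the 8 loci, by distance in kb from the lower-coordinate end of each gene; vertical bars are merged regions coloured by the libraries that called them, and yellow boxes are gene bodies. Regions of 1 siRNA only are few: 1 in Cd44 with siChst7, and 1 each at Cd44, Hmmr and the shared Hyal1 and Hyal2 locus with siControl.

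At gene starts, 6 of the 8 genes had a region called in all 4 libraries within 1 kb, against 54.1% of protein-coding genes. Has2 is among the 6 by a gene end rather than a known start, since genes with no promoter entry were counted by either end, for the 54.1% too. The order of strength ran from Tnfaip6 through Hmmr, Hyal2 and Cd44 to Has2 and Hyal1, and within each of these the siRNA groups overlapped. Has1 and Has3 had no such region. The values are the authors' fold enrichment at the summit, a ratio of the reads piled up there to the local background of the same library, and percentiles rank that ratio within a library over the 55924 regions called in all 4, with 100 the strongest.

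**Figure D2:**
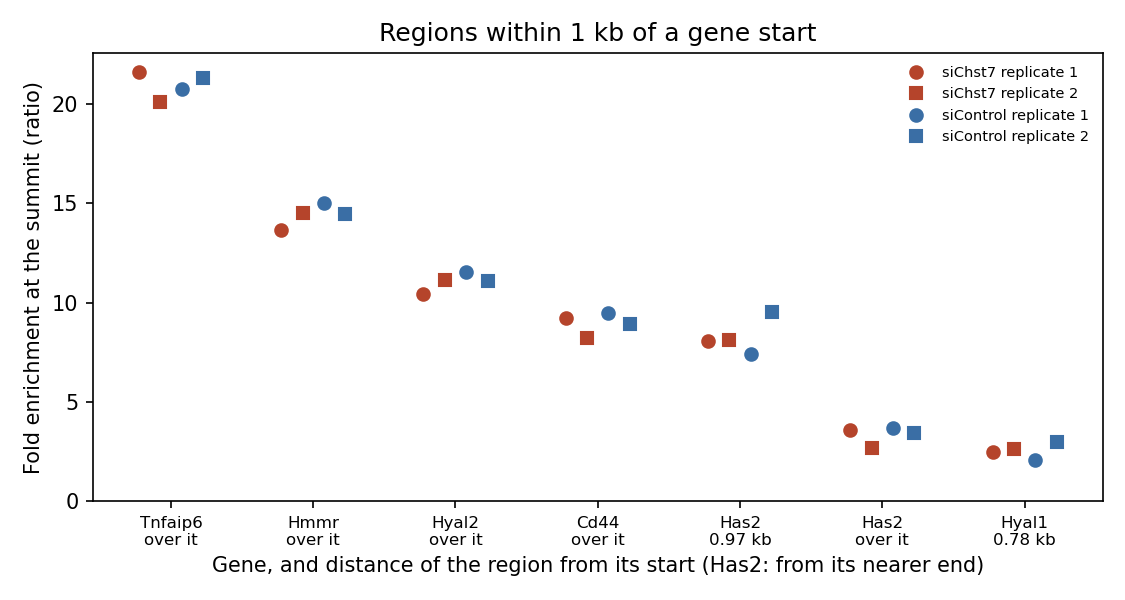
Fold enrichment (ratio) of the regions within 1 kb of a gene start, by gene, with 1 point per library. Tnfaip6 lies near 20 in all 4 libraries, Has2 (over its end) and Hyal1 under 4, and siChst7 and siControl points overlap at every region.

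Among the synthases, Has1 had 7 regions called in all 4 libraries, Has2 had 6 and Has3 had 3. Has2 (15, 56665627 to 56694546), the main hyaluronan synthase of embryonic tissue in the mouse, held 7 regions, 6 of them called in all 4 libraries. The strand of Has2 and Has3 was not used here, so distances are to the nearer gene end. Over the higher-coordinate end of Has2 (56694382 to 56694989) the fold enrichment was low, 3.59 and 2.70 in siChst7 against 3.69 and 3.45 in siControl. The reads piled up at that summit were 72 and 39 with siChst7, against 68 and 67 with siControl, on a high local background. A region inside the gene, 0.968 kb from the same end (56692237 to 56693578), had 8.09 and 8.12 in siChst7, against 7.41 and 9.54 in siControl. Both regions overlapped between groups.

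The strongest Has2 region lay inside the gene, 8.36 kb from that end (56685290 to 56686187). Its fold enrichment was 16.8 and 15.5 in siChst7, against 14.4 and 15.3 in siControl, and its percentile 94.5 and 90.9 against 83.2 and 86.3. The siChst7 libraries stood above the siControl libraries here by 7.92 points of percentile, without overlap. By −log10 q the same region had 165 and 97.5 with siChst7, against 124 and 120 with siControl, so on that scale the groups overlapped.

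Beyond the gene, a region 26.6 kb outside its higher-coordinate end (56721121 to 56721892, between genes) had a fold enrichment of 10.1 and 10.2 in siChst7, against 7.11 and 8.09 in siControl. Its percentile was 58.05 and 60.6 in siChst7 and 29.01 and 37.2 in siControl, a difference of 26.2 points. The reads behind it were 81 and 60 with siChst7, against 46 and 50 with siControl. Both siChst7 libraries were above both siControl libraries in fold enrichment, percentile and reads, the reads not being scaled for depth. A region 41.7 kb outside (56736282 to 56737020) had 10.8 and 9.27 in siChst7, against 9.60 and 6.75 in siControl; the percentile difference was 19.9 points and the lower siChst7 library (52.7) lay close to the higher siControl library (51.3). That difference was 6.76 points without siControl replicate 2 and 32.5 points without siControl replicate 1. On the other side of the gene, a region 41.2 kb away (56624060 to 56624422) had 8.26 and 5.64 in siChst7 and 9.26 and 8.17 in siControl. Its percentile difference of −13.8 points was the most negative among the shared regions at the 8 loci. The groups overlapped, with siChst7 replicate 2 the lowest of the 4.

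Has1 (17, 17833691 to 17855589, minus strand) held 11 regions, 7 of them in all 4 libraries, and none of these 7 separated the groups. This synthase is usually the least active of the 3. Near its start, a region 1.60 kb before it was called in siControl replicate 1 only, and one 2.19 kb before it (17857379 to 17857914) in 3 libraries with fold enrichments of 5.88 in siChst7 replicate 1 and 5.44 and 5.57 in siControl. The strongest region lay 16.6 kb after the start in DNA shared with Spaca6 (17837483 to 17838544), with 12.8 and 12.7 in siChst7 and 12.8 and 13.7 in siControl. It cannot be assigned to either gene. A region inside Has1 alone, 9.20 kb after the start, had 8.96 and 10.7 in siChst7, against 8.94 and 9.74 in siControl, which overlap.

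Has3 (8, 106870242 to 106882902) had no region over its body or ends in any library. The nearest one lay 4.88 kb outside the gene (106887784 to 106888276, inside Chtf8 and Derpc) and had a fold enrichment of 8.11 and 8.94 in siChst7, against 10.6 and 9.08 in siControl. By fold enrichment both siChst7 libraries were lower, while the percentiles (40.0 and 49.9 in siChst7, against 58.9 and 45.8 in siControl) overlapped. The strongest, 10.6 kb outside (106893535 to 106894213), lay at the starts of Chtf8 and Utp4 and had 13.4 and 12.1 in siChst7, against 14.0 and 13.7 in siControl, where the percentiles overlapped. All 7 regions of this locus lay on that side, in neighbouring genes.

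Cd44 (2, 102811141 to 102901669, minus strand) had the most regions outside the hyaluronidase cluster, 19, with 12 called in all 4 libraries and 10 of the 19 inside the gene. At 90.5 kb Cd44 is also the longest of the 8 genes, so its window was the widest. The region over its start (102900968 to 102901856) had a fold enrichment of 9.25 and 8.25 in siChst7, against 9.46 and 8.94 in siControl. Its percentiles, 50.6 and 43.3 in siChst7 and 50.1 and 44.8 in siControl, overlapped. The strongest region lay inside the gene 51.1 kb after the start (102849802 to 102850599), with 14.7 and 16.3 in siChst7 and 18.4 and 17.1 in siControl. By fold enrichment siChst7 was lower there, but the percentiles (86.9 and 93.2 against 96.4 and 92.4) overlapped. A comparably strong one 27.7 kb after the start (102873178 to 102874006) had 16.5 and 15.4 in siChst7, against 16.6 and 14.7 in siControl.

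Cd44 also carried regions that separated the groups in both directions. Called with siChst7 only was a weak region 34.7 kb after the start (102866719 to 102866928), with fold enrichments of 4.45 and 3.997 from 15 and 10 reads. Called with siControl only was one 76.4 kb after the start (102824915 to 102825267), with 2.73 and 2.62 from 32 and 28 reads. When a −log10 q of at least 5 was required, the first kept only its call in siChst7 replicate 1 and the second only that in siControl replicate 1. At 10 neither was called. Such separation was common: of all shared regions in the series, 19.5% ranked higher in both siChst7 libraries and 18.4% lower. Of the 12 shared regions at Cd44, 4 ranked higher and 1 lower. The largest of these differences was 12.4 points, 93.0 kb after the start and beyond the gene's far end (102807498 to 102808676), where the fold enrichment was 7.44 and 8.27 in siChst7 against 7.39 and 6.20 in siControl. It was 6.66 points without siControl replicate 2 and 7.79 points without siChst7 replicate 2. The other 3 were 7.96 points at 18.1 kb after the start, 6.25 points at 3.71 kb before it and 5.56 points at 104.3 kb after it. By −log10 q the groups overlapped at 104.3 kb, with 90.4 and 63.0 in siChst7 against 74.3 and 80.7 in siControl, but not at 18.1 or 3.71 kb. The one ranked lower lay 42.1 kb before the start (102943735 to 102944613), with 11.6 and 12.3 in siChst7 and 13.2 and 14.5 in siControl, a difference of −6.98 points. Single libraries moved these smaller differences too, without a change of sign. At 18.1 kb the difference was 12.1 points without siChst7 replicate 1 and 3.796 points without siChst7 replicate 2. At 104.3 kb it was 2.87 points without siChst7 replicate 1 and 3.21 points without siControl replicate 1, and at 3.71 kb it was 4.04 points without siControl replicate 1. At 42.1 kb before the start it was −3.92 points without siChst7 replicate 1 and −4.03 points without siControl replicate 2.

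Hmmr (11, 40701388 to 40733464, minus strand) had 9 regions, 4 of them in all 4 libraries, and none of these separated the groups. The region over its start (40733088 to 40734318) had a fold enrichment of 13.7 and 14.5 in siChst7, against 15.04 and 14.5 in siControl. It also covers the start of Nudcd2, which runs the other way, so the signal cannot be assigned to one of them. The 5 CCAAT matches shown above lie under this region. The strongest region of the locus lay 21.2 kb before the start over the start of Ccng1, a cyclin G gene (40754654 to 40755804), with 20.7 and 20.2 in siChst7, against 22.2 and 20.4 in siControl. A region 42.1 kb before the start (40775567 to 40776091) was called with siControl only, at 5.14 and 7.46 from 14 and 20 reads. It was no longer siControl-only at a −log10 q of at least 10 or when peaks narrower than 200 bp were removed.

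The hyaluronidase genes lie in a dense cluster. Hyal2 (9, 107567873 to 107572778), a membrane-anchored enzyme that makes the first cuts, and Hyal1 (9, 107576950 to 107581699), a lysosomal enzyme, both on the plus strand, had 20 regions each, 15 and 16 of them in all 4 libraries. At each gene 10 of these shared regions lay at the starts of other protein-coding genes. The region over the Hyal2 start (107568506 to 107569591) had a fold enrichment of 10.4 and 11.1 in siChst7, against 11.6 and 11.1 in siControl, and its percentiles overlapped. Hyal1 had only a weak region, 0.781 kb before its start (107575783 to 107576169), with 2.48 and 2.61 in siChst7, against 2.09 and 2.96 in siControl, from 62 and 47 reads against 52 and 71. That put it among the weakest shared regions of the series, at percentiles between 0.034 and 0.892. A stronger region inside Hyal1 (107580297 to 107581174) had 8.22 and 8.83 in siChst7, against 9.92 and 8.998 in siControl, and also lies at the starts of Hyal3 and Naa80.

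The strongest region of this cluster was at Tmem115 (107533659 to 107534699), with 16.0 and 16.6 in siChst7 and 16.2 and 16.4 in siControl. These fold enrichments overlapped, while by percentile the region ranked higher in siChst7, by 2.54 points. Of the shared regions at each gene, only this 1 ranked higher in siChst7 and 2 ranked lower, against 19.5% and 18.4% of all shared regions. The one with the largest difference lay inside Gnai2, 42.04 kb after the Hyal1 start (107618992 to 107620148), with 13.1 and 12.9 in siChst7, against 14.2 and 15.6 in siControl, and ranked lower with siChst7, at a mean percentile of 79.05 against 84.9 with siControl, a difference of −5.84 points (−3.14 without siControl replicate 2). A region between Sema3b and Gnai2 (107611530 to 107611798) was called with siControl only, at 2.73 and 3.00 from 50 and 54 reads. It was still called with siControl only at a −log10 q of at least 5, with lists of equal length, with summit windows of 200 bp and with peaks of at least 200 bp, but not at a −log10 q of at least 10.

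Tnfaip6 (2, 52038113 to 52056681, plus strand) had the strongest start of the 8 genes. The region over it (52037704 to 52038374) had a fold enrichment of 21.6 and 20.1 in siChst7, against 20.8 and 21.3 in siControl. It ranked at percentiles of 99.6 and 99.02 in siChst7 and 98.9 and 99.03 in siControl, and the summit lay 70 to 72 bp from the gene start in every library. The AP-1, MEF2 core, TEAD, GC box and CCAAT matches shown above lie under it. The start thus did not separate the siRNAs.

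Further upstream it was otherwise. A region 31.2 kb before the Tnfaip6 start (52005898 to 52006897, between genes) had a fold enrichment of 10.9 and 10.8 in siChst7, against 7.20 and 6.04 in siControl. Its percentile was 64.7 and 65.2 in siChst7 and 29.7 and 19.1 in siControl, and the difference of 40.6 points was the largest at any of the 8 loci. Both siChst7 libraries were well above both siControl libraries, and the replicates of each siRNA lay closer to each other than to the other group. The −log10 q was 30.1 and 23.2 with siChst7, against 12.4 and 8.77 with siControl. The reads at the summit were 40 (95% exact Poisson interval 28.6 to 54.5) and 29 (19.4 to 41.6) with siChst7, against 20 (12.2 to 30.9) and 16 (9.15 to 25.98) with siControl. These intervals cover counting error only, and of the pairs of a siChst7 and a siControl library only 40 against 16 reads did not overlap. Over each single library left out the percentile difference stayed between 34.7 and 45.3 points. At a −log10 q of at least 10 siControl replicate 2 no longer called the region, so it had no percentile difference there. Of all shared regions in the series, 0.0179% had a percentile difference of 40 to 44 points and 0.0215% one of −44 to −40 points. The difference at this Tnfaip6 region was not tested. In a bulk library, more cells with a site open and more access per cell cannot be told apart.

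**Figure D3:**
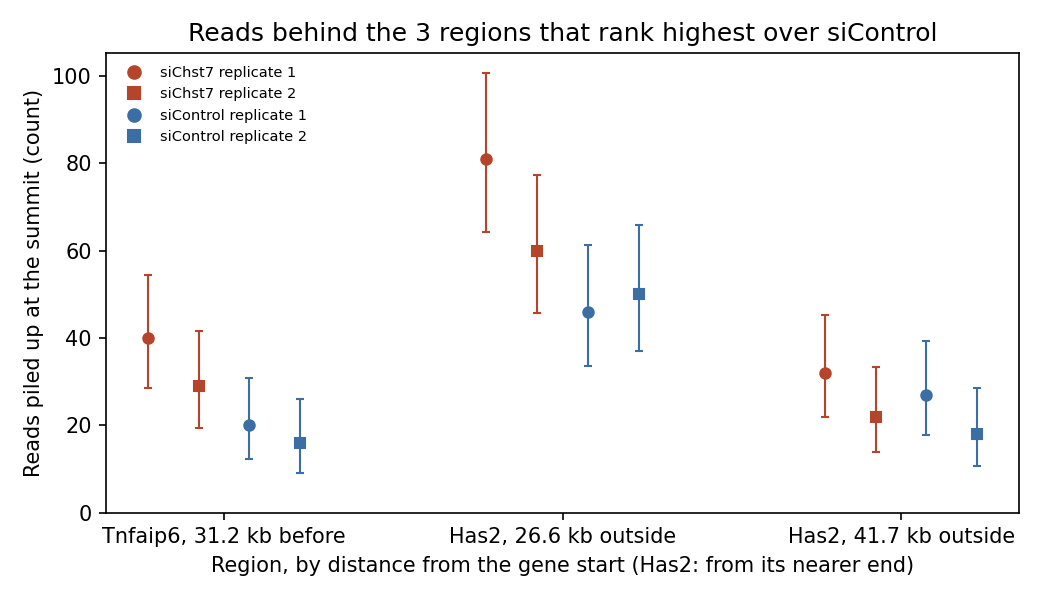
Reads piled up at the summit (count) for the 3 regions with the largest percentile difference, with 1 point per library and exact 95% Poisson intervals, not scaled for depth. At the region 31.2 kb before Tnfaip6, siChst7 libraries had 40 and 29 reads and siControl libraries 20 and 16.

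Other Tnfaip6 regions were weak or uneven. A region inside Rif1, 34.3 kb after the start (52072381 to 52073558), had 9.88 and 11.5 in siChst7, against 8.75 and 12.4 in siControl, with more spread within each siRNA than between them. Regions 37.6 and 48.1 kb before the start were called in every library but siControl replicate 2. The 3 regions called in siControl replicate 1 only rested on 9 to 12 reads.

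Over all 51 shared regions, 9 (17.6%) ranked higher in both siChst7 libraries than in both siControl libraries, against 19.5% of all shared regions. A further 3 (5.88%) ranked lower, against 18.4%, and 39 overlapped. The median difference was 0.330 points at the 8 loci and 0.0697 points over all shared regions. With a difference of at least 5 points, 8 regions (15.7%) were higher and 2 (3.92%) lower, against 14.2% and 13.7% of all shared regions. Higher ranks with siChst7 were thus about as frequent at these loci as elsewhere, and the lower ones were fewer, with no test of either. At 20 points, a limit picked after the values were seen, 2 were higher (3.92%) against 1.64% of all shared regions, and 0 were lower against 1.71%. The 2 were the regions 31.2 kb before Tnfaip6 and 26.6 kb outside Has2.

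**Figure D4:**
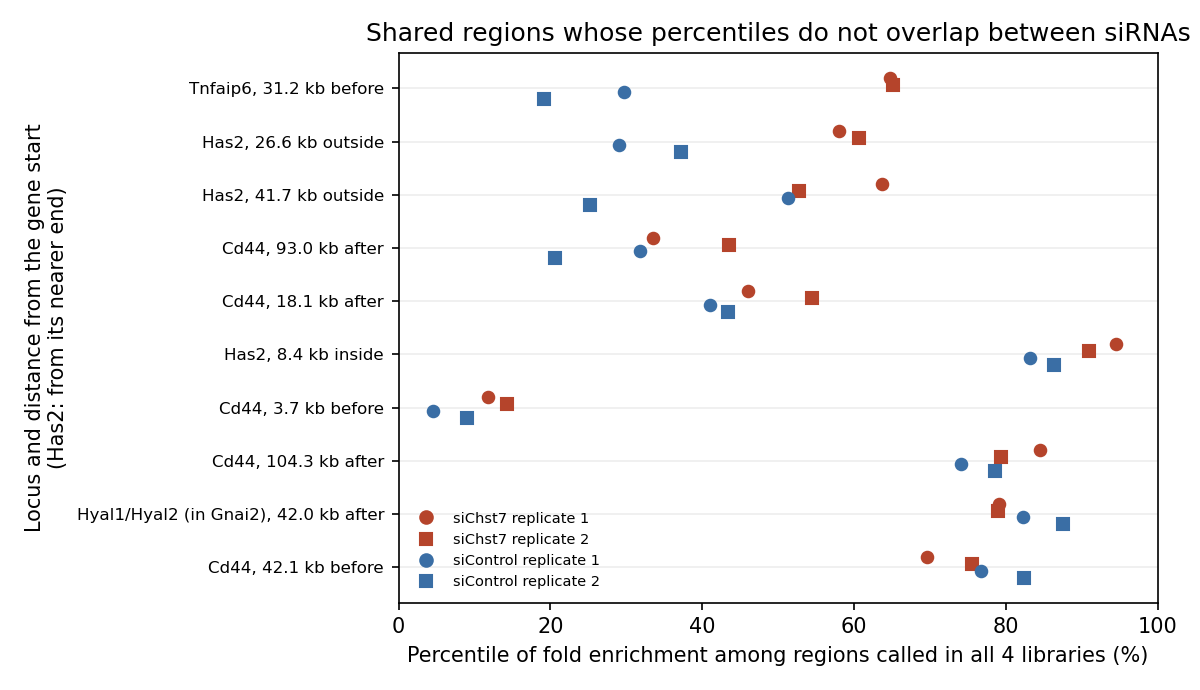
Percentile of fold enrichment (%) in each library for the 10 shared regions that differ by at least 5 points without overlap, by locus and distance. The top row, 31.2 kb before Tnfaip6, has siChst7 at 64.7 and 65.2 and siControl at 29.7 and 19.1.

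**Figure D5:**
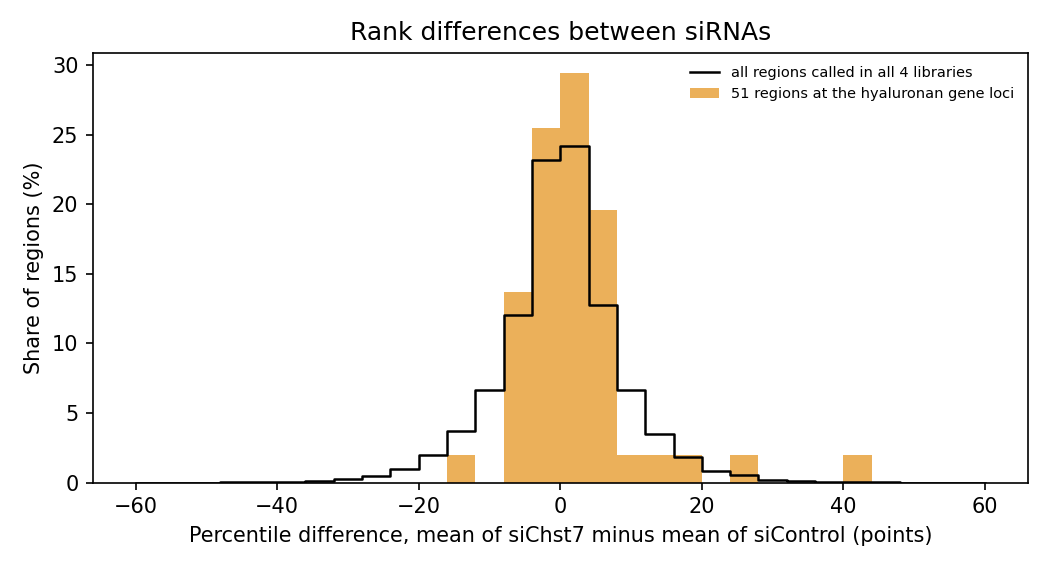
Share of regions (%) by percentile difference, siChst7 mean minus siControl mean in points, for the 51 regions at the 8 loci (bars) and all regions called in all 4 libraries (line). Most differences at the loci lie near 0, and the bar at the far right is the Tnfaip6 region at 40.6 points.

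In the wider hyaluronan pathway, genes that make the sugar precursors had called regions at their starts and those of hyaluronan-binding matrix proteins mostly had none. A start without a call is not shown to be closed: the fibroblast marker Col3a1 had none in any library. A region called in all 4 libraries lay within 1 kb of the start in 7 of 7 precursor genes, 6 of 8 other depolymerases and hydrolases, 3 of 6 other receptors and 3 of 15 link proteins, proteoglycans and heavy chains. The 4 groups together came to 19 of 36 (52.8%), against 54.1% of protein-coding genes. Among the strongest starts, by mean fold enrichment over the 4 libraries, were those of Uap1 (15.7), which makes UDP-N-acetylglucosamine, and Hapln4 (15.2), a link protein gene. Gusb (14.4), the lysosomal glucuronidase, had a start of similar strength. Layn (14.4), which encodes the hyaluronan receptor layilin, Pgm3 (13.1), Gfpt1 (11.7), the first step of the hexosamine pathway, and the hyaluronidase Cemip2 (11.6) were also among them. The genes without a start region in any library included Vcan and Acan, which encode large hyaluronan-binding proteoglycans, and the endothelial receptor gene Lyve1.

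Regions of 1 siRNA only were found near 12 of these 36 genes: at 6 with siChst7 only and at 7 with siControl only, Ptx3 having both. Over all protein-coding genes, 8.53% had a siChst7-only region at their locus and 20.3% a siControl-only one, and the difference of these 36 genes from that was not tested. Called with siChst7 only were regions inside Ugdh, which makes UDP-glucuronic acid (fold enrichment 3.62 and 3.56), and inside Itih5 (6.28 and 6.85), a heavy chain gene. Others lay 43.7 kb from Uap1 (5.01 and 5.26), 11.1 kb from Hexa (4.48 and 5.22), 29.1 kb from Itih4 (5.95 and 6.33) and 19.8 kb from Ptx3 (4.95 and 5.24). Called with siControl only were regions inside Stab2, a scavenger receptor gene for hyaluronan (3.72 and 5.06), 6.48 kb from Gfpt2 (4.37 and 3.63) and 13.9 kb from Cemip (4.46 and 4.62). The remaining ones lay 26.4 kb from Stab1 (2.92 and 2.90), 36.2 kb from Vcan (5.14 and 7.46) and 36.6 kb from Ptx3 (4.80 and 5.68), besides the region at the Hyal cluster that is also within reach of Hyal3. None of these genes is assigned to its region by anything but distance.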

How the data were processed

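The authors deposited 1 narrowPeak list per library, without pooling replicates, per the peak names in the files. Per the submitters' processing notes, Bowtie, SAMtools, MACS3, bedtools and HOMER were used with mm10; the sources used here give no versions, roles, duplicate handling or Tn5 shift. Per the labels' protocols, sequencing was paired-end with reads of 75 bp. The deposited fold enrichment is a ratio of summit reads to local background, the deposited −log10 p and −log10 q belong to the summit (lowest −log10 q just above 2), and the deposited score is about 10 times −log10 q. These are the authors' values per peak and were only described or ranked within a library.

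Peaks on chromosomes 1 to 19, X and Y were merged at 1 bp overlap; where a library had several peaks in a region, the highest value was used. Gene positions, starts and promoters came from RefSeq tables of GRCm38.p6, and 6 of 8 members had a promoter entry. The reads at each summit were solved from the fold enrichment and −log10 p as MACS computes them; all of 5000 sampled peaks per library gave a whole number within 0.02. The background so found was 2.03 and 1.48 reads in siChst7 and 1.92 and 1.82 in siControl. The peak totals limit the precision, and the number of sequenced reads is unknown. The sources used here do not state whether the solved counts are reads or fragments, and they are called reads throughout. The Poisson intervals take each count as independent. The scripts (Python 3.11.15, pandas 2.3.3, SciPy 1.17.1) were tested on simulated data.

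Named were the 8 members and, at each locus, the start region, the strongest region, regions of 1 siRNA only and shared regions differing by 5 points without overlap; of the other hyaluronan genes, those with a region of 1 siRNA only and the 8 strongest starts, of which 1 is not reported here. The members, lists and tests were chosen with earlier results of these data known. Solving the summit reads was added after the data were seen.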

Additional observations from a re-analysis of the deposited data

How the results depend on the processing

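A shared start region was found at 6 of the 8 genes without any 1 library, with summit windows and within 2.5 kb, and at 5 genes at a −log10 q of at least 5 or 10, with lists of equal length and with peaks of at least 200 bp. The count of 51 regions shared by all libraries was between 51 and 55 without 1 library; it was 26 with flanks of 10 kb and 78 with 100 kb. The difference in the share of peaks at the loci had no stable sign: it was −0.000310 percentage points at a −log10 q of at least 5, −0.000141 with flanks of 10 kb, and from −0.00157 to 0.00645 without 1 library. With the replicate number as a replicate block it was 0.00244 (exact sign-flip permutation p = 1, where the smallest possible is 0.5); rank deviations of equal numbers had a correlation of 0.0118 across regions, so the numbers are not taken to pair the samples. Regions called with siChst7 only numbered 0 at a −log10 q of at least 5 or 10 and with lists of equal length, 3 with summit windows, 2 with flanks of 100 kb, and 3 to 5 without 1 library. Regions called with siControl only numbered 0 at a −log10 q of at least 10, 1 with flanks of 10 kb, 5 with 100 kb, and 3 to 10 without 1 library. Shared regions ranked higher with siChst7 numbered 4 with flanks of 10 kb and 15 to 23 without 1 library. Those ranked lower numbered 1 with flanks of 10 kb, 9 with 100 kb, 6 when ranked by −log10 q, and 9 to 17 without 1 library. With fewer libraries, fewer values need to be separated. Of 98 recomputed percentile differences of the 10 regions that differed by at least 5 points, 0 changed sign and 10 moved by more than the spread between replicates. The Tnfaip6 region gave 32.1 points by −log10 q. It gave no value at a −log10 q of at least 10, where siControl replicate 2 no longer called it. The Cd44 region 18.1 kb after the start gave none with summit windows, where it was not shared by all 4 libraries. The regions called with 1 siRNA only rested on 10 to 54 summit reads, and a region that was not called is not shown to be closed.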
